A study of Mus musculus with 2 samples.

Results

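The genes for the ligands, receptors and Gli factors of Hedgehog signalling were followed in embryonic mouse ureters after mesenchymal deletion of Smad4. The members were Shh, Ihh, Ptch1, Gli1, Gli2, Gli3, Hhip, Smo and Boc, taken as every probe other than a control probe that carried one of these gene names in both scanner files. The 9 genes had 12 of the 39429 probes of the array, on 21 of its 43020 spots. All 12 probes were well above background in all 4 channels, so all 12 were among the 26669 probes tested. RNA of dissected ureters at E14.5 (embryonic stage in days, strain NMRI) was hybridised on 2 two-colour arrays. The channel labelled Smad4cKO held Tbx18(cre/+);Smad4(fl/fl) ureters and the channel labelled control held Tbx18(+/+);Smad4(fl/+) ureters, so the controls carried 1 floxed Smad4 allele as well. Cre was made from the Tbx18 locus, which is active in the mesenchyme around the ureter and not in its epithelium. The mutants thus also had 1 altered Tbx18 allele, whose effect cannot be told apart from that of Smad4 loss. Array 1 paired female embryos with the mutant in AlexaFluor555 (green), and array 2 paired male embryos with the mutant in AlexaFluor647 (red). Sex and dye orientation therefore changed together. The number of embryos and litters behind each RNA is not in the labels.

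Hedgehog ligands are secreted proteins that bind Patched receptors on neighbouring cells. Binding relieves the block that Patched places on Smoothened, and the signal then turns the Gli transcription factors from repressors into activators. In the ureter the epithelium makes Shh, and the surrounding mesenchyme receives it, proliferates, and forms the smooth muscle and fibrous coats. Ptch1, Gli1 and Hhip are themselves induced by the signal and are widely read as its output. Smad4 is the shared partner of the SMADs that carry BMP and TGFB signals.

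The probes are 60 bases long and were read from the scanner files. The first 30 bases, 5′ to 3′, are given for both ligands and for the pathway outputs Ptch1 and Gli1, because the text below turns on them. All 5 map to the minus strand (build mm9), and the coordinates are those of the printed bases.
Shh, chr5:28784013-28784042: aatttattattgtgtgaactgtactcacag
Ihh, chr1:74991936-74991965: gagggggaaatccatgggagaattttggga
Ptch1, probe A_52_P598605, chr13:63610328-63610357: catttggatgttttaatttgtaaaagaaaa
Ptch1, probe A_55_P2107292, chr13:63612909-63612938: ttcatgtcaggtgtgagaggagggactcaa
Gli1, chr10:126766997-126767026: ggggctgtatttagtctatgtatgttccag
The Ptch1 probe A_52_P598605 had the lowest GC content of the 12 probes, 21.7%, against 53.3% for the other Ptch1 probe, which was the highest. The remaining 10 probes had between 35.0% and 45.0%. The Hhip probes lay 3551 bases apart both on the chromosome and in the transcript that the files list for them, so no intron of that transcript lay between them. The same held for the Smo probes, 306 bases apart. The Ptch1 probes lay 2581 bases apart on the chromosome, and the files list them on different transcripts. The probes of Shh and Gli2, the Ptch1 probe A_52_P598605 and the Hhip probe A_51_P416822 held a stop codon in every reading frame, so none of these 4 can lie wholly in coding sequence. Exon annotation of build mm9 was not used here.

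Ratios are given as log2 of the channel labelled Smad4cKO over the channel labelled control, by the dye labels. In the authors' deposited table the columns, whose titles put Smad4cKO before control, carry control over Smad4cKO by those dye labels. Going by the titles instead would turn the direction of every gene round. Smad4 itself gave -0.69 on array 1 and -0.14 on array 2 with its brighter probe, and -0.31 and -0.49 with the other (limma adjusted p = 0.9999 and 0.7553, n = 2). Its probes may lie outside the deleted part and then check nothing. By the dye labels Tbx18, of which the mutants carry an altered allele, was brighter in the labelled Smad4cKO on both arrays, with 0.07 and 0.81. Going by the titles it would be dimmer in the mutant on both. The effect of that allele on the signal of this probe was not tested. Myh11, the smooth muscle myosin heavy chain gene, had the highest mean of all tested probes, with 2.08 and 2.65 (mean 2.37 ± 0.18, SE, n = 2, limma adjusted p = 0.05384), and its direction rests on the same dye labels. The share of spots well above background was 70.3% and 69.0% in the mutant channels of arrays 1 and 2, against 68.3% and 70.1% in the control channels, and 0 spots were saturated. Across all tested probes the ratios of the arrays correlated at -0.0913 (Pearson) and -0.213 (Spearman), where probes are not independent replicates.

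For no Hedgehog member did the channels labelled Smad4cKO and control differ by limma's test, whose error draws mostly on the spread of other probes. The means of Shh and of the Smo probe A_51_P258766, 0.07 and 0.11, were above the SD of their own 2 ratios, 0.05 and 0.07, but within limma's SE of 0.13 for each. The mean log2 ratios of the 12 probes lay between -0.12 for Gli1 and 0.30 for Ihh, with a median of 0.04, beside a median of 0.0039 over all tested probes. Limma (lmFit and eBayes on all 26669 probes, Benjamini-Hochberg adjustment, threshold 0.05) called 0 of the 12 probes, and 0.00750% of all tested probes. At an unadjusted p under 0.05 it found 0 of the 12, with 4.92% of all tested probes. A second, untested rule took probes that each array placed 1.5-fold or more to one side. By it 0 of the 12 probes were brighter and 0 dimmer in the labelled Smad4cKO, beside 0.454% and 0.510% of all tested probes (0.964% in either direction). The limma adjusted p was 0.9999 for each of the 12 probes. With 2 arrays, turning the signs of the ratios allows no exact p below 0.5.

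**Figure D1:**
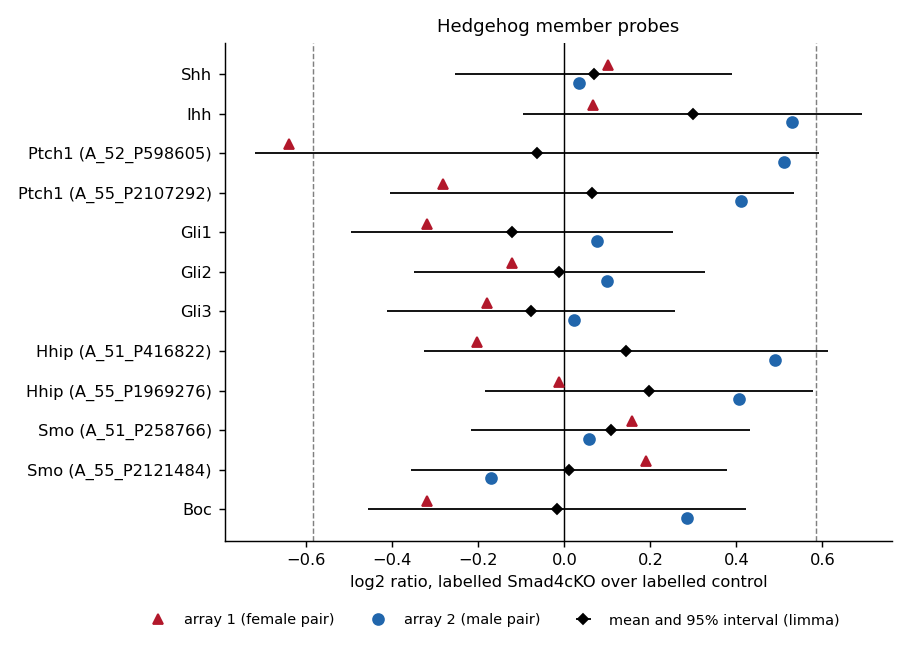
Log2 ratios of the 12 member probes, labelled Smad4cKO over labelled control (x axis). Red triangles are array 1 (female pair), blue circles array 2 (male pair), and black diamonds the mean of both with limma's 95% confidence interval. The dashed lines mark 1.5-fold, and every interval includes 0.

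The ligand genes had the same sign on both arrays. Shh, the ligand that the ureteric epithelium secretes, was spotted 10 times on each array, which gives its within-array error directly. On array 1 its processed signal was 247.8 ± 12.1 in the channel labelled Smad4cKO and 224.2 ± 10.4 in the labelled control (SD over 10 spots of 1 hybridisation). On array 2 it was 291.9 ± 15.7 in the labelled Smad4cKO and 284.3 ± 14.2 in the labelled control. The mutant spots ranged from 231.2 to 266.5 around a median of 247.6 on array 1, against 210.6 to 239.5 around a median of 225 in the control, so the ranges overlapped. On array 2 they ranged from 272.5 to 328.6 around 290 in the mutant and from 264.5 to 307.9 around 281.5 in the control, and again overlapped.

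The log2 ratios of the Shh spots averaged 0.10 ± 0.04 on array 1, where 10 of 10 lay above 0, and 0.03 ± 0.05 on array 2, where 8 of 10 did (SD, 10 spots). These spots share 1 RNA pair per array, so they measure the precision of a hybridisation and not of a genotype. Over both arrays Shh gave 0.07 ± 0.13 (log2, limma's moderated SE, n = 2), a fold of 1.05 with a 95% confidence interval from 0.839 to 1.31. Of the 312 tested probes spotted as often, 64 had a smaller gap between the arrays than the 0.07 of Shh, and their median gap was 0.19. The spread of the Shh spots was close to that of those probes, whose median SD was 0.05 on each array. The scanner software's own unadjusted p for the ratio of a spot, which covers the error of that spot only, lay between 0.329 and 0.944 over the 20 spots.

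**Figure D2:**
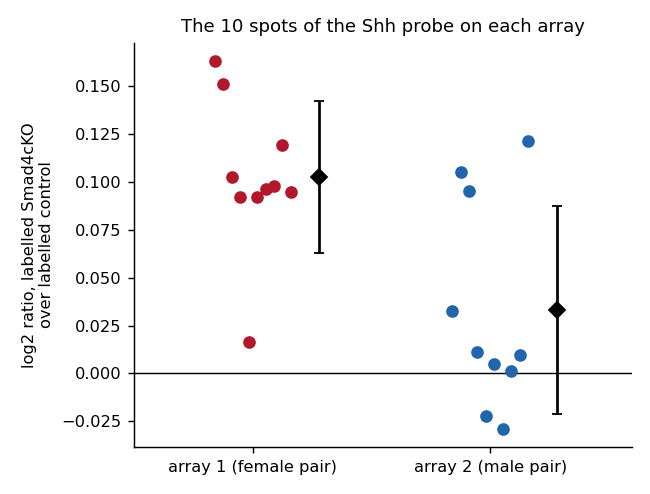
Log2 ratio of each of the 10 Shh spots on array 1 and array 2 (points, y axis), with their mean and SD (diamonds and bars). The spots of array 1 lie between 0.02 and 0.16 and those of array 2 between -0.03 and 0.12.

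Ihh encodes the ligand best known from growing cartilage and gut, and its probe gave the highest mean among the members. Its processed signal was 313.7 in the labelled Smad4cKO against 303.4 in the labelled control on array 1, and 524.8 against 335.7 on array 2. The mutant channel was thus brighter on both arrays, but clearly so on array 2 alone, where the mutant value stood above the other 3. The log2 ratios were 0.07 and 0.53, with a mean of 0.30 ± 0.16 (SE, n = 2), or 1.23-fold (95% interval 0.936 to 1.62). This was the lowest unadjusted limma p among the members, 0.1136, and 6.93% of all tested probes had a larger absolute mean. The scanner software's unadjusted p for this spot was 0.819 on array 1 and 0.00285 on array 2. Markers of cartilage, where Ihh is made, had a summed signal of 3983 and 6041 in the labelled Smad4cKO on arrays 1 and 2, against 4458 and 4676 in the labelled control. Of these 3 markers 2 were tested, both with opposite signs on the arrays, and Col10a1, which marks the hypertrophic cells, was not above background. The part of cartilage in the Ihh ratio was not tested.

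Shh in the ureter comes from the epithelium, which Tbx18-Cre does not target, and in RNA of a whole ureter fewer cells of a type and less RNA per cell cannot be told apart. All 18 urothelial markers were tested, with 7 brighter on both arrays, 1 dimmer and 10 of opposite sign. The shares over all named genes were 20.0% brighter, 19.6% dimmer and 60.4% of opposite sign. Their median log2 ratio was 0.08 on array 1 and 0.07 on array 2, close to the 0.10 and 0.03 of Shh. Their summed processed signal was 161800 and 150200 in the labelled Smad4cKO on arrays 1 and 2, against 123200 and 170300 in the labelled control. The bright keratin genes Krt8, Krt18 and Krt19 carried most of these sums. The part of epithelial content in the ratios of Shh and Ihh was not tested.

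The receptor Ptch1 binds the ligands, restrains Smoothened and is induced by the signal, and both of its probes changed sign between the arrays. Probe A_55_P2107292 had a processed signal of 420 in the labelled Smad4cKO against 504.8 in the labelled control on array 1, and 643.4 against 471.1 on array 2. The dimmer probe A_52_P598605 had 100.1 against 175.6 on array 1, and 174.7 against 105.3 on array 2. The mutant was thus the lower channel in the female pair and the higher channel in the male pair with both probes, and the genotypes overlapped.

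The log2 ratios of Ptch1 were -0.28 and 0.41 with probe A_55_P2107292 (mean 0.06 ± 0.19, SE, n = 2). They were -0.64 and 0.51 with A_52_P598605 (mean -0.06 ± 0.27), so the means of the probes differ in sign and lie near 0. As a fold these intervals ran from 0.754 to 1.45 and from 0.607 to 1.51. The difference of 1.151 between the arrays of probe A_52_P598605 was the widest among the members, and 1.95% of all tested probes had a wider one; for the other probe the gap was 0.69 and the share 5.94%. The scanner software's unadjusted p for probe A_52_P598605 was 0.000704 on array 1 and 0.00241 on array 2, in opposite directions.

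**Figure D3:**
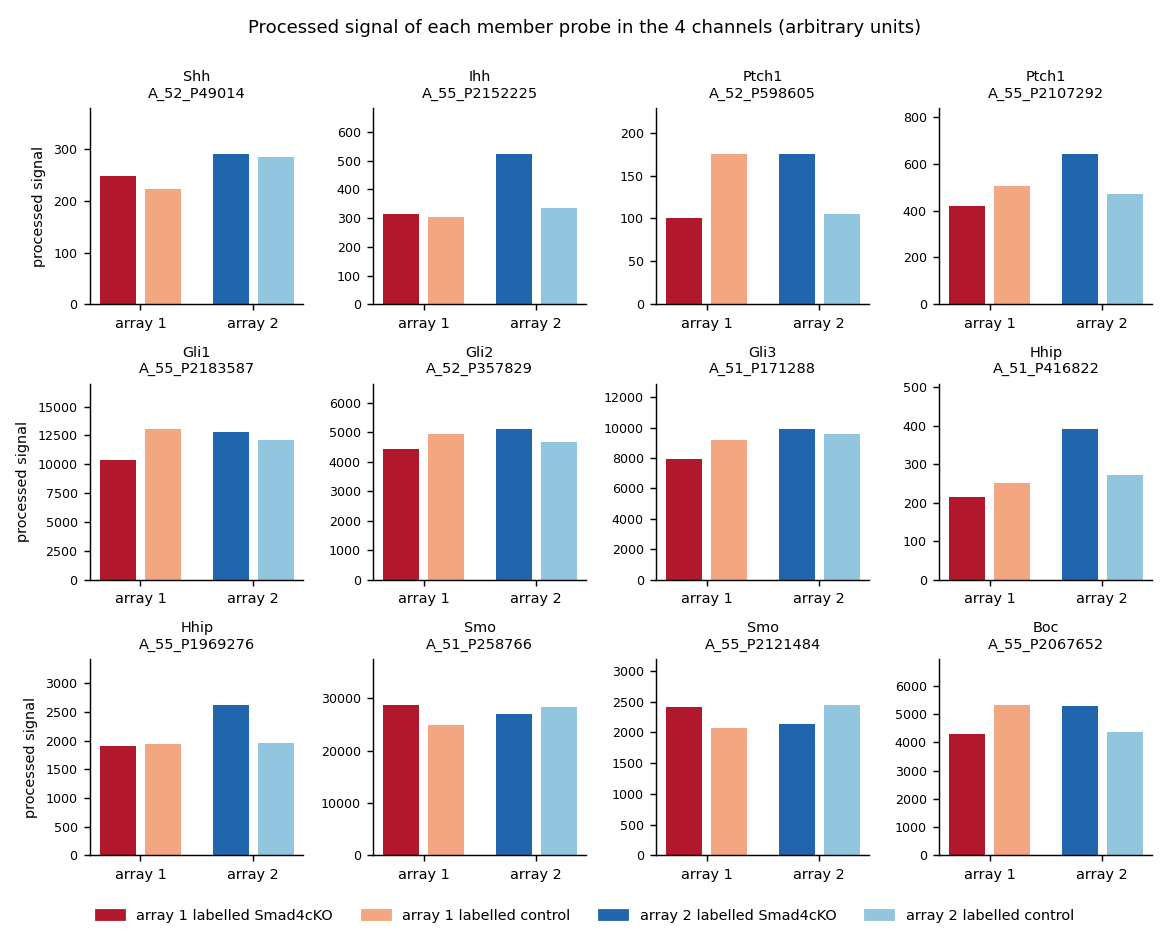
Processed signal (y axes, from 0, arbitrary units, each panel on its own scale) of every member probe in the 4 channels, with the labelled Smad4cKO left of the labelled control on each array. For Ptch1, Boc, Hhip and the Gli genes the mutant bar is the lower of the pair on array 1 and the higher on array 2.

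Smo, the membrane protein that relays the signal once Patched is bound, was measured by 2 probes. The brighter probe A_51_P258766 had processed signals of 28830 in the labelled Smad4cKO against 24850 in the labelled control on array 1, and 27010 against 28440 on array 2. Its log2 ratios after loess were 0.16 and 0.06 (mean 0.11 ± 0.13, SE, n = 2; fold 1.08, 95% interval 0.861 to 1.35). On array 2 the processed signals have the mutant lower and the loess ratio has it slightly higher, a difference that comes from the normalization of the same spot. The other probe, A_55_P2121484, had 2407 against 2069 on array 1 and 2142 against 2450 on array 2, with ratios of 0.19 and -0.17 (mean 0.01 ± 0.15). After loess it was the only member probe that was brighter in green on both arrays. By processed signal the probe A_51_P258766 was as well.

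Boc, a cell surface coreceptor that helps bind the ligands, had processed signals of 4298 in the labelled Smad4cKO against 5330 in the labelled control on array 1, and 5272 against 4357 on array 2. The mutant was lower in the female pair and higher in the male pair by about the same amount. The log2 ratios were -0.32 and 0.29, with a mean of -0.02 ± 0.18 (SE, n = 2) and a fold interval from 0.729 to 1.34.

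Hhip, a membrane protein that captures the ligands and is induced by the signal, went the same way with both probes. Probe A_55_P1969276 had processed signals of 1899 in the labelled Smad4cKO against 1935 in the labelled control on array 1, and 2628 against 1959 on array 2. Probe A_51_P416822 had 216.2 against 252.6 on array 1, and 391.7 against 273 on array 2. On array 1 the channels were near each other, and on array 2 the mutant channel was the brightest of the 4 with both probes. The log2 ratios were -0.01 and 0.41 with the first probe and -0.20 and 0.49 with the second. The means were 0.20 ± 0.16 and 0.14 ± 0.19 (SE, n = 2), with fold intervals from 0.879 to 1.49 and from 0.798 to 1.53.

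The Gli genes encode the transcription factors of the pathway. Gli1, an activator whose own transcription depends on the signal, had processed signals of 10360 in the labelled Smad4cKO against 13050 in the labelled control on array 1, and 12790 against 12140 on array 2. The mutant channel of the female pair was the lowest of the 4. The log2 ratios were -0.32 and 0.08, and the mean of -0.12 ± 0.15 (SE, n = 2) was the lowest among the members. As a fold this was 0.919, with a 95% interval from 0.709 to 1.19.

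Gli2, the main activator in response to the ligand, had 4440 against 4923 on array 1 and 5106 against 4652 on array 2, in the same order of labelled Smad4cKO and labelled control. Its log2 ratios of -0.12 and 0.10 gave a mean of -0.01 ± 0.14 (SE, n = 2) and a fold interval from 0.784 to 1.254. Gli3, which acts chiefly as a repressor when the signal is absent, had 7954 in the labelled Smad4cKO against 9168 in the labelled control on array 1, and 9897 against 9573 on array 2. Its ratios of -0.18 and 0.02 gave a mean of -0.08 ± 0.14 and a fold interval from 0.751 to 1.195. All 3 Gli genes were lower in the mutant on array 1 and higher on array 2, so their levels overlapped between the genotypes.

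The change of sign between the arrays was the pattern that most members shared. Of the 12 probes, 3 were brighter in the labelled Smad4cKO on both arrays (Shh, Ihh and the Smo probe A_51_P258766), 0 were dimmer on both, and 9 had opposite signs. From processed signals, from the authors' values or with median centring, 2 of the 12 had the same sign on both arrays. Over all tested probes 39.7% had the same sign on both arrays. Of the 9 probes of opposite sign, 8 were brighter in the red channel on both arrays, that is lower in the mutant of the female pair and higher in the mutant of the male pair. Those 8 belonged to Ptch1, Gli1, Gli2, Gli3, Hhip and Boc, and 30.0% of all tested probes did the same. The median ratio of the members was -0.15 on array 1 and 0.19 on array 2, against 0.0018 and 0.0002 over all tested probes. Their median gap between the arrays was 0.41, and that of all tested probes 0.21. Probes of 1 gene are not independent of each other. Because the dye orientation, the sex and the RNA pair all changed between the arrays, these cannot be told apart, and no test of the difference was possible with 1 array of each kind.

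**Figure D4:**
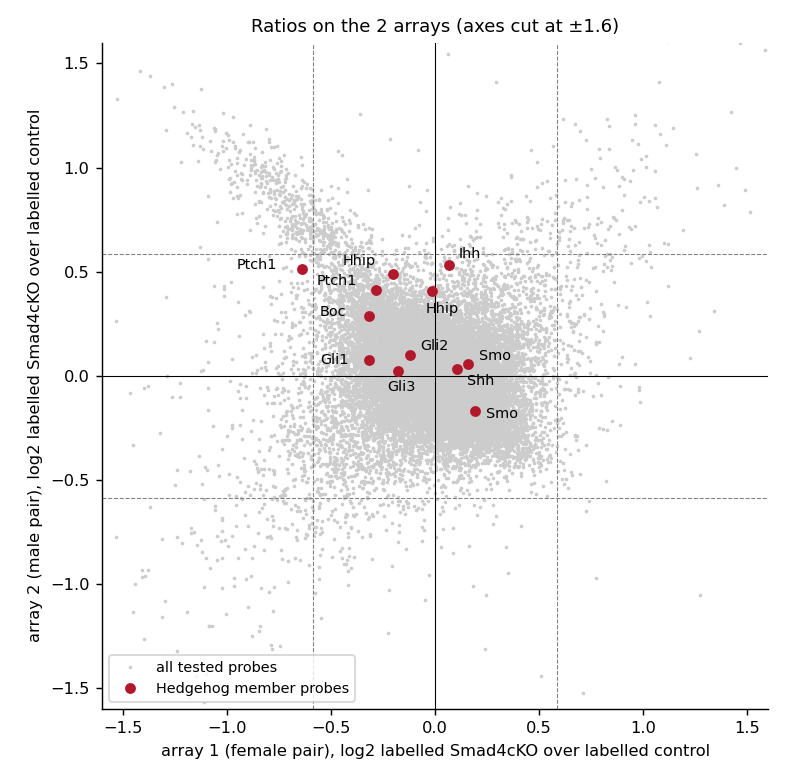
Log2 ratio on array 2 (y axis) against array 1 (x axis), labelled Smad4cKO over labelled control, for all tested probes (grey) and the 12 member probes (red). Dashed lines mark 1.5-fold, and 34 of the 26669 probes lie beyond the axes at ±1.6. The Ptch1, Hhip, Boc and Gli probes lie at the upper left, lower in the mutant on array 1 and higher on array 2.

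The cells that receive the signal were checked by their markers. For the counts below, 20.0% of all named genes were brighter on both arrays, 19.6% dimmer and 60.4% of opposite sign. All 6 markers of ureteric mesenchyme were tested, with 3 brighter on both arrays, 2 dimmer and 1 of opposite sign. Their summed processed signal was 89780 and 89600 in the labelled Smad4cKO, against 73850 and 87920 in the labelled control. The largest part of these sums was Tcf21 alone, with 49670 and 39300 against 24490 and 34680. Aldh1a2 went the other way, with 10030 and 10230 against 17780 and 24390. The sum is therefore not a common level of the mesenchymal markers. The smooth muscle markers were brighter on both arrays in 7 of 7 cases, with median ratios of 1.03 and 2.08 and summed signals of 30490 and 48200 in the labelled Smad4cKO against 16350 and 15140 in the labelled control. The median of the Hedgehog members did not share that sign on array 1. Of the markers of neural crest and neurons, 6 of 6 were dimmer on both arrays (summed signal 5251 and 5627 in the labelled Smad4cKO, 7864 and 7045 in the labelled control), and of the kidney markers 5 of 8 were. The part of these cell types in the members' ratios was not tested.

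Other genes of the pathway were described through 4 lists with 66 tested genes, each by its brightest tested probe. Limma called 0 of the 66, beside 0.00515% of 19418 named genes. At an unadjusted p under 0.05 it found 2 brighter and 8 dimmer in the labelled Smad4cKO, beside 2.22% of all named genes brighter and 3.07% dimmer. Of these 8, 6 were in the list of genes that respond to Hedgehog or act below it. The lists were chosen with earlier results of these data known, so a count above these shares is no test of the pathway. By the 1.5-fold rule 0 were brighter and 2 dimmer, Igfbp6 and Wnt5a, beside 0.520% of all named genes brighter and 0.530% dimmer (1.05% in either direction). From processed signals or the authors' values the 2 genes were Igfbp6 and Bmp4, and with median centring Igfbp6 alone passed. Over both arrays 9 of the 66 were brighter, 23 dimmer and 34 of opposite sign, with a median of -0.04. Over all named genes 20.0% were brighter on both arrays, 19.6% dimmer and 60.4% of opposite sign, with a median of 0.0054.

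Among 8 genes of ligand processing and release, 0 were brighter on both arrays and 3 dimmer, with a median of -0.05. Scube1, of a family of secreted proteins that help to release the ligands, had ratios of -0.86 on array 1 and -0.43 on array 2; their mean was -0.64 ± 0.16 (SE, n = 2) and limma adjusted p = 0.4133. Dhh, the third mammalian ligand, gave -0.09 and -0.52. Disp2, related to the ligand-releasing protein Dispatched, gave -0.07 and -0.03, at dim processed signals of 47.89 to 61.16. Among 7 coreceptors and other receptors, 0 were brighter on both arrays and 4 dimmer, with a median of -0.12. Cdon, the coreceptor most like Boc, gave -0.58 and -0.20 (mean -0.39 ± 0.15, limma adjusted p = 0.9566), but its second tested probe gave -0.41 and 0.15. The coreceptor gene Gas1 gave -0.42 and -0.06, and its other 2 probes had the same signs. Lrp2, an endocytic receptor, gave -0.05 and -0.11.

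The 23 genes of the cilium and of Gli processing stayed nearest to 0, with means between -0.20 and 0.16 and a median of 0.02. Of these 4 were brighter on both arrays, 5 dimmer and 14 of opposite sign. Gpr161, a ciliary receptor that restrains the pathway, gave -0.10 on both arrays, at dim processed signals of 61.78 to 79.91. Tulp3, which carries receptors into the cilium, gave 0.09 and 0.19. Gsk3b, a kinase that promotes Gli processing, gave -0.32 and -0.08 with its brightest probe, and another of its 3 probes changed sign. The kinase gene Ulk3 gave -0.11 and -0.08, and its other probe -0.07 and 0.02.

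The list of genes that respond to Hedgehog or act below it in mesenchyme had the widest range, with 28 genes tested and Pax9 not above background. Of these 5 were brighter on both arrays, 11 dimmer and 12 of opposite sign, with a median of -0.09. Igfbp6, which encodes a binding protein for insulin-like growth factors, had -1.24 and -0.77, a mean of -1.01 ± 0.16 (SE, n = 2) with limma adjusted p = 0.1724. Wnt5a, a secreted WNT ligand, gave -0.61 and -0.59 (mean -0.60 ± 0.13, limma adjusted p = 0.309). The ligand gene Bmp4, which the ureteric mesenchyme needs to form smooth muscle, gave -1.04 and -0.43 (mean -0.74 ± 0.18, limma adjusted p = 0.4105). Sfrp1, a secreted WNT inhibitor, gave -0.42 and -0.75. These 4 were dimmer in the labelled Smad4cKO on both arrays without passing limma's threshold. With the intensity trend and robust fit 4 of the 66 genes passed, Igfbp6, Scube1 and Wnt5a dimmer and Foxf2 brighter. That fit called 337 of all 26669 tested probes brighter and 456 dimmer. Igfbp6 also passed from Feature Extraction's processed signals (limma adjusted p = 0.01983), from which 147 of all tested probes were called brighter and 163 dimmer.

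**Figure D5:**
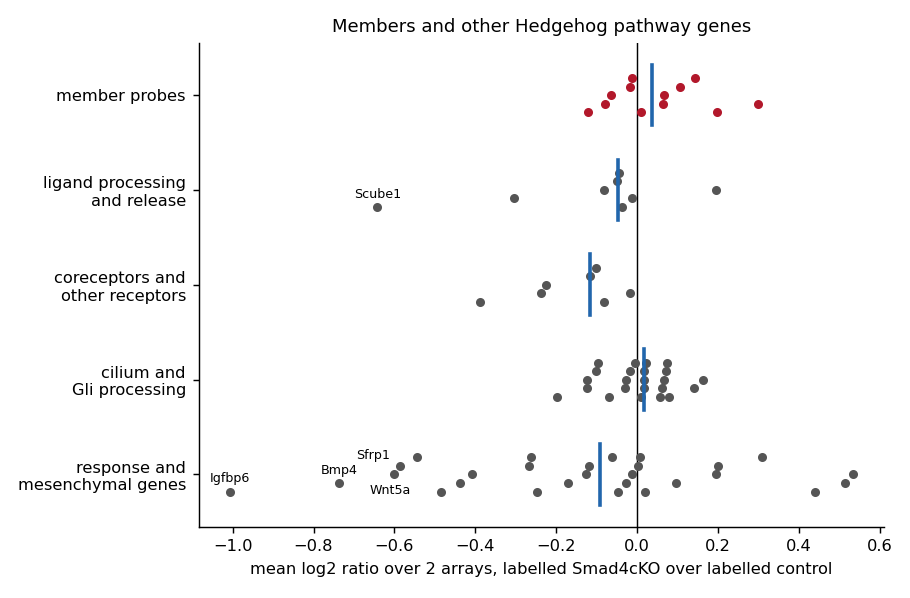
Mean log2 ratio over both arrays, labelled Smad4cKO over labelled control (x axis), of the 12 member probes (red) and of the genes of 4 Hedgehog pathway lists (grey, brightest tested probe of each gene). Blue bars are medians, which lie between -0.12 and 0.04, and genes beyond 0.57 in size are named.

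The promoter table of RefSeq (build GRCm38.p6, 250 bases before to 50 after each start) held 6 of the 9 members, namely Ihh, Gli2, Smo, Hhip, Gli3 and Ptch1. The Gli consensus TGGGTGGTC, searched on both strands, was in 0 of these 6 windows and in 0.253% of the 32851 promoters. No match says only that these letters are not in the window.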

How the data were processed

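Total RNA (200 ng per channel) was amplified and labelled, per the labels' protocols. Agilent Feature Extraction (version 10.7.3.1, per the file headers) wrote the scanner files, which hold deposited intensity values for each spot (mean, local background and processed signal), a log10 ratio of red over green and a p-value for that ratio. Processed signals had been detrended, background-subtracted and dye-normalized with LOWESS settings, per the file headers. The authors also deposited a value table of signed folds between channels, treated as a score. Over 25565 probes above background in both groups it equalled the inverse of the processed-signal ratio up to a constant (Pearson -1 on both arrays). By the dye labels it thus runs control over Smad4cKO. The correlation itself cannot show which channel held the mutant. How that table was computed is not stated in the labels or headers.

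Mean signals were corrected with normexp (offset 50) and normalized by loess within each array, with control spots at weight 0 (limma 3.58.1, statmod 1.5.0, data.table version 1.17.8, R 4.3.3). The 1377 control spots and the outlier spots (237 on array 1, 221 on array 2, 0 of them of a member) were left out, and the remaining spots were averaged by probe. Testing required signal well above background, on each array, in the channel of at least 1 and the same labelled group. Each probe's ratios were tested against 0 with lmFit and eBayes, with 1 residual and 5.04 prior degrees of freedom, so most of the information in the SE came from other probes. The number of arrays limits the precision. The p-values concern these 2 pairs of RNA only, and their error draws mostly on the spread of other probes. The fit was checked on simulated data.

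The members and lists were chosen with earlier results of these data known. All member probes are named; of each other list, up to 4 genes are named, those of the same sign on both arrays with the larger of the smaller ratios. A gene that this rule names is not reported here. Cell type markers were counted by list. Symbols of 26412 probes came from RefSeq (GRCm38.p6), and others are the file's. Alternatives covered signals, background, normalization, filters, probe summary, empirical Bayes, pairing, arrays and the fold of the second rule.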

Additional observations from a re-analysis of the deposited data

Results flagged for a closer look

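For 9 of the 12 member probes the log2 ratio, labelled Smad4cKO over labelled control, had opposite signs in the female pair (array 1) and the male pair (array 2). Opposite signs were also found for 60.3% of all tested probes, and probes of 1 gene are not independent. With 1 array per sex and the dyes exchanged between them, the difference between the pairs was not tested. In the female pair the ratios were -0.64 and -0.28 for the Ptch1 probes A_52_P598605 and A_55_P2107292, -0.20 and -0.0133 for the Hhip probes A_51_P416822 and A_55_P1969276, and -0.32 for Boc. In the male pair the same probes gave 0.51 and 0.41 for Ptch1, 0.49 and 0.41 for Hhip, and 0.29 for Boc. Gli1 gave -0.32 in the female and 0.0752 in the male pair, Gli2 -0.12 and 0.10, and Gli3 -0.18 and 0.0228. The Smo probe A_55_P2121484 ran the other way, with 0.19 in the female and -0.17 in the male pair.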

How the results depend on the processing

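Under 12 tested alternatives the 138 values of the member probes kept their direction of the mean and stayed on the same side of limma's threshold. With the background filters, outlier spots kept, the brightest probe, the trend and robust fit or single channels, the means could not change. Their direction was fixed in advance there. The mean of both Ptch1 probes, counted as keeping the direction of probe A_55_P2107292, was 7.8e-06. The lowest adjusted p was 0.5391, for Ihh with the intensity trend and robust fit. Over all tested probes limma called 0 brighter and 2 dimmer, against 147 and 163 from processed signals, 65 and 60 from the authors' values, 36 and 36 with normexp offset 10, 1 and 5 without background subtraction, 1 and 5 with probes above background in both groups, 0 and 4 without a filter, 0 and 0 with median centring or a gene summary, and 337 and 456 with the intensity trend and robust fit. The arrays pair the channels by construction. With no replicate block (4 single channels) it called 8 and 8, and 0 member probes. Of the other pathway genes, 1 was called from processed signals and 4 with the trend, against 0. The 1.5-fold rule found 1 dimmer pathway gene with median centring, 1 brighter and 6 dimmer at a lower limit (log2 of 0.32), and 0 dimmer at 2-fold. From 1 array alone, pathway genes at 1.5-fold were 0 to 3 brighter and 4 to 6 dimmer, and dimmer member probes 0 to 1 (Ptch1 on array 1). The share of all named genes that passed was not counted under these alternatives of the fold rule. Their counts are therefore no result about the pathway. Median centring moved the median of all tested probes to -0.12 on array 1 and 0.12 on array 2. Under it 9 of 12 member probes were brighter in red on both arrays, with 53.7% of all tested probes, and the count was 8 under the other alternatives fitted to all 12 probes. Depth is not defined for arrays; their number limits the precision.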

Other observations

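Among the genes that respond to Hedgehog or act below it, 4 others had an unadjusted limma p under 0.05 and were chosen after their values were seen. Snai2, a transcription factor of mesenchymal cells, gave 0.35 on array 1 and 0.68 on array 2. The forkhead gene Foxf2, a mesenchymal target of Hedgehog signalling in the gut, gave 0.16 and 0.91. Foxl1, its neighbour in function in gut mesenchyme, gave -0.31 and -0.67, and Foxd2 gave -0.51 and -0.37. Their limma adjusted p lay between 0.5647 and 0.8955 (n = 2), so none of the 4 passed in that fit. With the intensity trend and robust fit Foxf2 passed (limma adjusted p = 0.0142). Its processed signals were dim, 192.6 in the labelled Smad4cKO against 161.2 in the labelled control on array 1, and 254.2 against 101.1 on array 2.

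Among the members of the same sign on both arrays, Ihh had the largest smaller ratio. The 3 named genes closest to its pair of ratios were Kcnt2 (0.07 and 0.52), Epas1 (0.07 and 0.54) and LOC100039402 (0.06 and 0.53). Likeness was the distance over 2 arrays only, and 60 named probes lay within 0.1 of Ihh.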
